A study of Mus musculus with 12 samples.

Results

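Gabra2, Gabra3, Gabra4, Gabra5, Gabrb1, Gabrb2 and Gabrd are the GABA-A receptor subunit genes described here. They are the 7 rows, of 47729 genes counted, whose Ensembl identifier carries one of these symbols in GENCODE M21, and all 7 passed the count minimum that left 26963 genes in the tests. Messenger RNA of the bilateral amygdala was measured in 12 female C57/BL6 mice, an inbred strain, to ask which transcripts move with anxiety-like behavior. Each mouse passed through the elevated plus maze (EPM) at 9 weeks of age, the light/dark box (LD) at 10 weeks and a test of social interaction (SIT) at 11 weeks, and gave 1 library. The labels place 3 mice in a less anxious state (mice 3, 7 and 12), 4 in an anxious state (mice 1, 4, 8 and 11) and 4 in a more anxious state (mice 2, 6, 9 and 10). The states differ in no treatment, genotype, sex or strain. The authors set them by tertiles of the second principal component of these same libraries, so they are not independent of expression. Mouse 5 has no state and enters no comparison of states, and it was added to the behavior relations only as an alternative. The authors had removed this mouse as a clear outlier in a principal component analysis.

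GABA-A receptors are chloride channels opened by GABA and are the main carriers of fast inhibition in the brain. Most of these channels join alpha and beta subunits with a gamma or a delta subunit. The alpha subunit sets much of where the channel sits and how it answers drugs. In the amygdala these receptors hold principal neurons in check and are targets of benzodiazepines, barbiturates and neurosteroids.

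The 11 libraries held 31745630 to 45142355 estimated counts. Markers of the basolateral and central amygdala, 9 genes in all, were counted in every mouse, with a lowest level of 4.28 CPM (counts scaled to a common library size). Sums of marker genes known from neighbouring tissue differed between libraries. The sum of 6 markers of striatal neurons ran from 124 CPM in mouse 4 to 529 CPM in mouse 12, and the sum of 2 pituitary hormone genes reached 52.1 CPM in mouse 4 against at most 0.269 CPM in the more anxious mice. No 2 libraries matched within sampling noise. Mouse 6, labelled more anxious, had the highest open-arm time (29.2%), light time (46.6%) and light distance (41.9%) of the 11 mice, which goes against its label. In tissue of mixed cells, fewer cells of a type and less RNA per cell cannot be told apart.

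The members lie on 5 chromosomes of GRCm38. Gabra2 (chr5:70957597-71095849, minus strand), Gabra4 (chr5:71569749-71658308, minus) and Gabrb1 (chr5:71658113-72149037, plus) are neighbours on chromosome 5, and the bodies of Gabra4 and Gabrb1 meet head to head and overlap by 196 bases. Gabra5 lies at chr7:57407672-57510059 on the minus strand, Gabrb2 at chr11:42419757-42629028 on the plus strand, Gabrd at chr4:155384980-155398112 on the minus strand and Gabra3 at chrX:72432681-72656848 on the minus strand. Gabra4 and Gabrb1 share 46 exon bases on opposite strands, 0.756% of the exon bases of Gabra4. Gabra5 shares 148 exon bases, 4.98% of its own, with Gm9962 on the other strand. Whether the counting used the strand of the library was not stated, so reads from these stretches may belong to either gene.

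Promoter sequence was read from a set of windows at RefSeq starts (GRCm38.p6), which held 6 of the 7 members and no entry for Gabrd. The stretches upstream of Gabra4 and Gabrb2 are shown because the levels of these members moved together over the mice. Both are written 5′ to 3′ on the strand of the gene, and the capitals mark matches to GGGCGG (the GC box, a binding motif of Sp1) or TATAAA (the TATA box) on either strand. The Gabra4 stretch (chr5:71658364-71658558, minus) ends 56 bases before the start, since the bases from there on belong to an exon of Gabrb1. The Gabrb2 stretch (chr11:42420190-42420439, plus) ends at the base before the first start listed by RefSeq. It lies inside the GENCODE body of Gabrb2 given above, so it is upstream of that RefSeq start only.
Gabra4: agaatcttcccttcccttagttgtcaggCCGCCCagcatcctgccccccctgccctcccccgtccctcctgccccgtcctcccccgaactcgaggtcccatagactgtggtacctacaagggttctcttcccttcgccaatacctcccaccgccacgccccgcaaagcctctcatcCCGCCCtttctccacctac
Gabrb2: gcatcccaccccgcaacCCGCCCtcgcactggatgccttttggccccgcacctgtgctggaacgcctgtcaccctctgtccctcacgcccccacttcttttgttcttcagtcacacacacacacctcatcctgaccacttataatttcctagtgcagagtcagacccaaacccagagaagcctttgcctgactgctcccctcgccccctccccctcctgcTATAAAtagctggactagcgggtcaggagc

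Gabra4 held 2 copies of GGGCGG, both on the other strand, which began 222 and 74 bases before the start. Gabrb2 held 1 copy of GGGCGG, 233 bases before the start, and 1 copy of TATAAA on its own strand, 30 bases before it. Of the 32851 upstream windows of 250 bases in the table, 32.7% held GGGCGG and 12.4% held TATAAA on either strand. Among the 10 windows of the members, 3 held GGGCGG (Gabra2, Gabra4 and Gabrb2) and 3 held TATAAA (1 of Gabrb2 and 2 overlapping windows of Gabra3). TGACG, the core of the cAMP response element, was in none of the 10 and in 17.8% of all windows. No window of Gabra5 or Gabrb1 held any of the 3 motifs. The RefSeq starts of Gabra4 and Gabrb1 lay 387 bases apart on opposite strands, with Gabrb1 starting inside the body of Gabra4.

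Per kilobase of exon, Gabra3 was the highest member and Gabrb2 the lowest. The alpha 3 subunit is found in synaptic receptors that contain a gamma subunit. Its gene had a mean level of 53.0 ± 4.56 CPM per kb (SD, n = 11), and in all 11 mice it stood above Gabra5, the gene of the alpha 5 subunit, which is known from receptors outside the synapse in the hippocampus. Gabra5 followed with 23.7 ± 3.06 CPM per kb and was above Gabra2 in 10 of 11 mice. Gabra2 had 17.0 ± 2.37 and Gabra4 15.7 ± 1.31 CPM per kb, an order that held in only 7 of 11 mice. The same was true of Gabrd (11.9 ± 2.97 CPM per kb) and Gabrb1 (11.3 ± 1.38 CPM per kb), of which Gabrd was higher in 5 of 11 mice. Gabrb2 had 7.76 ± 1.21 CPM per kb and was below Gabrb1 in all 11 mice. Divided by the longest protein-coding transcript in place of all exons, the levels of Gabra4 (23.2 CPM per kb) and Gabra2 (22.2) changed places, as did those of Gabrb2 (12.4) and Gabrb1 (11.4).

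**Figure D1:**
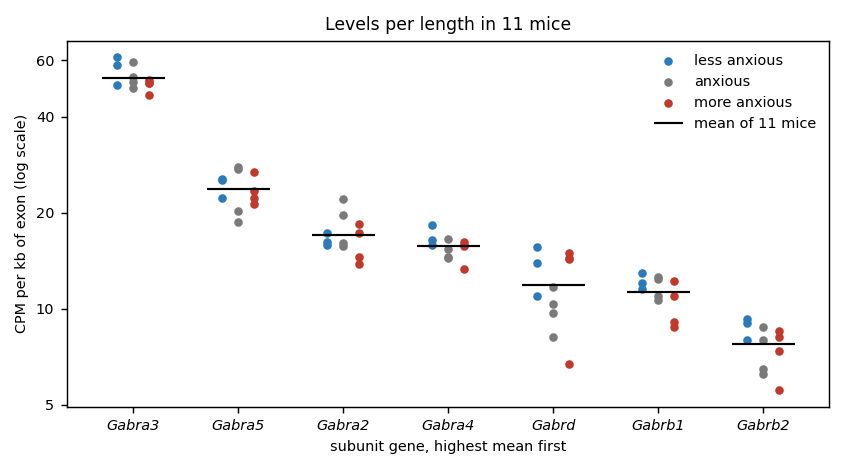
Level of each subunit gene in CPM per kb of exon (log axis), 1 point per mouse colored by predicted anxiety state, with the mean of 11 mice as a line. Gabra3 stands apart at 46.7 to 61.3 CPM per kb, and the points of Gabrd, from 6.70 to 15.6, spread the widest for their mean.

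The spread over mice differed between members. Gabrd, the delta subunit of extrasynaptic receptors that carry tonic inhibition, had a coefficient of variation of 25.0%, which was above that of 83.2% of the 15891 genes with a mean of at least 1 CPM, and its highest mouse stood 2.33-fold above its lowest. Gabra4 and Gabra3 varied least, with 8.39% and 8.59%. The other members lay between 12.2% (Gabrb1) and 15.7% (Gabrb2).

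The comparison of the 3 states asked whether any subunit changes with predicted anxiety. None of the 7 members was called over the 3 states by edgeR's quasi-likelihood test with the first principal component as a covariate (lowest adjusted p = 0.856, Gabrb1), and none had an unadjusted p under 0.05. Over all genes tested, 0.00742% were called and 6.35% had an unadjusted p under 0.05. Between more and less anxious mice, none of the 7 was called, against 0.0445% of all genes, and 1 member had an unadjusted p under 0.05, against 8.83%. In DESeq2's test of the same model none of the 7 was called in either comparison. Of all genes, DESeq2 called 192 over the states and 304 between more and less anxious mice. None of the 7 had an unadjusted p under 0.05 in DESeq2, whose share of all genes at that level is not given here. The CPM of less and more anxious mice overlapped for all 7 members, while 8.4% of all genes showed no overlap. All 7 fitted differences were below 0 (more minus less anxious), from -0.01 (Gabra2) to -0.26 (Gabrb1) on the log2 scale, but those of Gabra2 and Gabrd turned above 0 when single mice were left out. The median over all genes was 0.00. Without mouse 6 the differences were 0.03 (Gabra2), -0.18 (Gabra3), -0.15 (Gabra4), -0.055 (Gabra5), -0.28 (Gabrb1), -0.33 (Gabrb2) and -0.20 (Gabrd), and none was called.

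**Figure D2:**
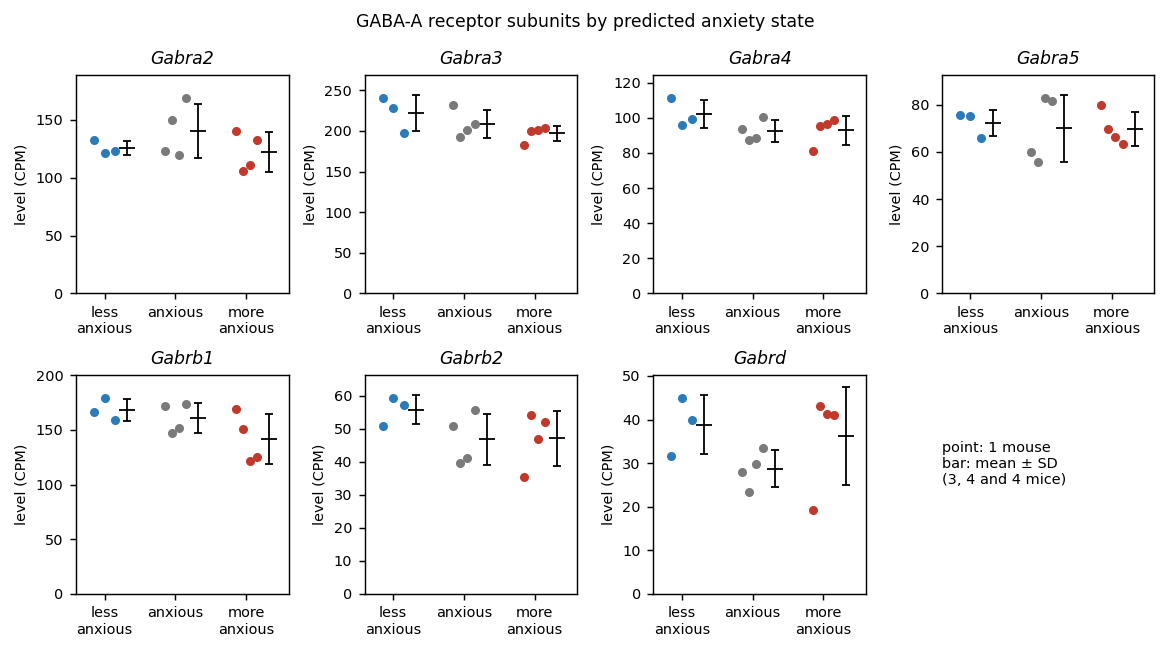
Level of each subunit gene in CPM (axes from 0) by predicted anxiety state, 1 point per mouse, with the mean ± SD of 3 less anxious, 4 anxious and 4 more anxious mice beside the points. The less and more anxious mice overlap in all 7 panels, and mouse 2 lies alone at 19.3 CPM in the Gabrd panel.

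Among the alpha subunits, Gabra2 encodes the subunit through which benzodiazepines act on anxiety in mouse models. Its level was 132, 121 and 123 CPM in less anxious mice 3, 7 and 12, 123, 149.8, 119.7 and 169 CPM in anxious mice 1, 4, 8 and 11, and 141, 105, 111 and 132 CPM in more anxious mice 2, 6, 9 and 10. The anxious mice 4 and 11 were the highest and the states overlapped. The difference of more minus less anxious mice was -0.01 ± 0.13 on the log2 scale (SE, edgeR adjusted p = 0.995), with a 95% interval from -0.28 to 0.27.

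Gabra3 stood at 241, 228 and 198 CPM in less anxious mice 3, 7 and 12, at 232, 192, 201 and 208 CPM in anxious mice 1, 4, 8 and 11, and at 183, 199.98, 201 and 204 CPM in more anxious mice 2, 6, 9 and 10. The means fell in the order 222, 208 and 197 CPM, but mouse 12 lay within the range of the more anxious mice. The difference was -0.16 ± 0.10 (edgeR adjusted p = 0.702), with an interval from -0.37 to 0.05. It was -0.09 without mouse 7 and -0.24 without mouse 12, the latter with an unadjusted p under 0.05.

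Gabra4, whose product pairs with delta outside the synapse, had 111, 96.1 and 99.6 CPM in less anxious mice 3, 7 and 12, 93.4, 87.5, 88.4 and 101 CPM in anxious mice 1, 4, 8 and 11, and 80.9, 95.6, 96.3 and 98.7 CPM in more anxious mice 2, 6, 9 and 10. Mouse 3 was the highest and mouse 2 the lowest, and the other 9 mice lay between 87.5 and 101 CPM. The difference was -0.11 ± 0.09 (edgeR adjusted p = 0.790), and -0.05 without mouse 2. Gabra5 had 75.7, 75.4 and 66.1 CPM in mice 3, 7 and 12, 60.1, 55.7, 82.9 and 81.5 CPM in mice 1, 4, 8 and 11, and 79.8, 69.7, 66.2 and 63.4 CPM in mice 2, 6, 9 and 10. Both its lowest and its highest mice were in the anxious state. The difference of more minus less anxious mice was -0.07 ± 0.14 (edgeR adjusted p = 0.94), with an interval from -0.38 to 0.24, and ran from -0.0017 without mouse 3 to -0.13 without mouse 2 or mouse 12.

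Of the beta subunits, which every GABA-A receptor of the common type needs, Gabrb1 had the lowest p of the members between the end states. Its level was 167, 179 and 159 CPM in less anxious mice 3, 7 and 12, 172, 147, 152 and 174 CPM in anxious mice 1, 4, 8 and 11, and 169, 151, 121 and 126 CPM in more anxious mice 2, 6, 9 and 10. Mice 9 and 10 were the lowest of all, whereas mouse 2 lay within the range of the less anxious mice. The difference was -0.26 ± 0.12 on the log2 scale (edgeR p = 0.0499, adjusted p = 0.565), and an exact two-sided permutation test of the 7 mice gave p = 0.171, where the smallest possible p is 0.0286. Without mouse 9 the difference was -0.18, and without mouse 2 it was -0.35.

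No cell type marker passed adjustment between the end states or over the 3 states in edgeR. DESeq2 called 5 markers over the states (Slc1a3, Cck, Kcnj13, Prl and Gh), beside 192 of all genes. All 4 astrocyte markers had a fitted difference below 0 between more and less anxious mice, with Slc1a3, the glutamate transporter GLAST, at -0.50 ± 0.12 (edgeR adjusted p over the states = 0.493), where 50.5% of all genes were above 0. The same sign was found for all 4 oligodendrocyte, all 4 microglia and all 3 endothelial markers, with median differences of -0.16, -0.22 and -0.62. It was also found for all 6 striatal and the 2 pituitary markers (medians -0.67 and -3.92). All 3 neuronal markers were above 0 (median 0.30), as were 3 of 4 glutamatergic markers (median 0.38). Of the interneuron markers 4 of 5 were above 0, with Cck at 0.89 ± 0.21. Only 1 of 4 GABAergic neuron markers was above 0 (median -0.14). The same count held for the basolateral amygdala and choroid plexus lists (medians -0.18 and -0.37). Above 0 were 3 of 5 central amygdala, 3 of 5 thalamus, 3 of 5 hippocampus and 4 of 5 hypothalamus markers. The sum of the astrocyte markers was 869.5 to 1074 CPM in less anxious, 707 to 865 in anxious and 651 to 825 CPM in more anxious mice, where it was lowest in mouse 9 and highest in mouse 10, the mice with the lowest Gabrb1. The sum of 3 neuronal markers ran from 3036 to 3385, 2992 to 3494 and 3124 to 4029 CPM in the same order. Over 11 mice that share these libraries, Gabrb1 had a Pearson r of 0.65 with the log2 sum of the astrocyte markers (Spearman rho 0.68, and r 0.56 without mice 7 and 3) and of -0.75 with that of the neuronal markers (rho -0.70, and -0.33 without mice 10 and 9). The central amygdala markers gave 0.70 (rho 0.56, and 0.70 without mice 10 and 12). These are 3 of 112 relations between 16 marker lists and 7 members, given as a description. Their part in the difference of Gabrb1 was not tested.

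Gabrb2, the beta subunit of the most common receptor type, was measured at 50.7, 59.2 and 57.3 CPM in less anxious mice 3, 7 and 12, at 50.9, 39.6, 41.1 and 55.6 CPM in anxious mice 1, 4, 8 and 11, and at 35.4, 54.2, 46.8 and 52.0 CPM in more anxious mice 2, 6, 9 and 10. Mice 7 and 12 were the highest, and mice 2, 4 and 8 the lowest. The difference of more minus less anxious mice was -0.23 ± 0.16 (edgeR adjusted p = 0.733), and its interval ran from -0.57 to 0.10. It was -0.12 without mouse 2 and -0.13 without mouse 7. It was -0.31 without mouse 3 and -0.33 without mouse 6, the latter with an unadjusted p under 0.05 (edgeR).

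Gabrd had 31.5, 44.9 and 39.96 CPM in less anxious mice 3, 7 and 12, 28.0, 23.4, 29.8 and 33.5 CPM in anxious mice 1, 4, 8 and 11, and 19.3, 43.0, 41.4 and 41.1 CPM in more anxious mice 2, 6, 9 and 10. Of the more anxious mice, 3 lay above every anxious mouse, and mouse 2 lay below every other mouse. The difference of more minus less anxious mice was -0.11 ± 0.26 (edgeR adjusted p = 0.953), with an interval from -0.69 to 0.47. It was 0.10 without mouse 2 and 0.03 without mouse 7, so its sign rests on single mice. Without mouse 2, Gabrd and Gabrb1 had an unadjusted p under 0.05 over the 3 states, with adjusted p = 0.288 and 0.499 (edgeR).

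The 7 behavior measures do not depend on the sequencing, and each member was tested against each of them as a number over 11 mice (10 for the 3 min social ratio). None of the 49 relations was called after adjustment over all genes (edgeR, lowest adjusted p = 0.576), and DESeq2 called none of them (lowest adjusted p = 0.137). The share of all genes called is given here only for total EPM entries in edgeR, and not for DESeq2. An unadjusted p under 0.05 was found for 6 of the 49. For total EPM entries it was 2 of 7 members, against 6.97% of all genes with such a p and 0% called. For the share of EPM time on the open arms it was 1 of 7 against 5.84%, for the LD distance in the light 1 of 7 against 5.8%, and for the LD time in the light 0 of 7 against 3.55%. For the box:zone ratio of the SIT it was 1 of 7 against 7.65% at 3 min, 0 of 7 against 6.56% at 5 min and 1 of 7 against 8.05% at 10 min.

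**Figure D3:**
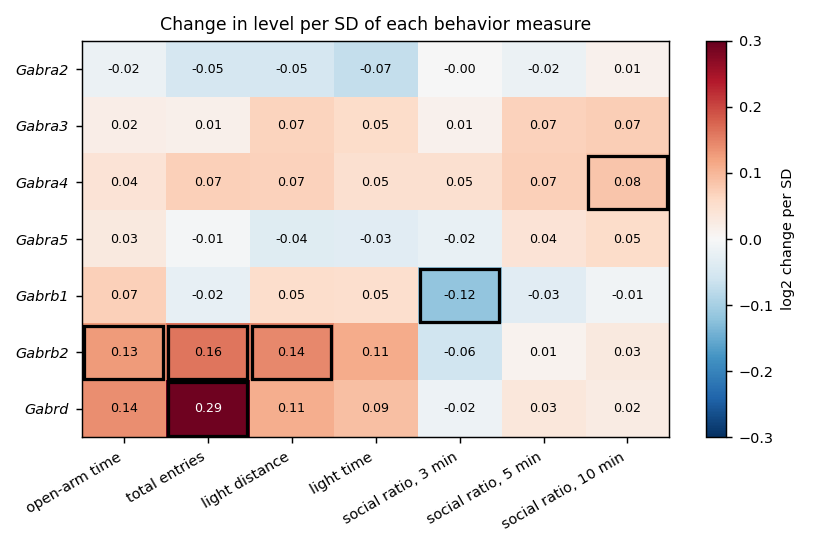
Fitted log2 change in level per SD of each behavior measure, for 7 subunit genes (rows) and 7 measures (columns), where red is higher and blue lower with a larger measure and a black frame marks an unadjusted p under 0.05. Gabrd with total entries, at 0.29, is the largest value, and no value passed adjustment.

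Gabrd and Gabrb2 had positive fitted slopes with EPM entries that did not pass adjustment. Gabrd was lowest, at 19.3 CPM, in mouse 2, which made 6 entries, and stood at 28.0 CPM in mouse 1 (15 entries), 41.4 in mouse 9 (22), 23.4 in mouse 4 (24), 33.5 in mouse 11 (28), 31.5 in mouse 3 (29), 29.8 in mouse 8 (30), 44.9 in mouse 7 and 41.1 in mouse 10 (31 each), 43.0 in mouse 6 (36) and 39.96 CPM in mouse 12 (42). The slope was 0.29 ± 0.08 on the log2 scale per SD of 9.85 entries (edgeR p = 0.00228, adjusted p = 0.576), with Pearson r = 0.75 and Spearman rho = 0.66. Without mouse 2 the slope was 0.16 and no longer had an unadjusted p under 0.05, and r was 0.43 without mice 2 and 1, the farthest from the median of entries. The slope of Gabrb2 was 0.16 ± 0.06 (edgeR p = 0.0109, adjusted p = 0.606, r = 0.68, rho = 0.69), and without mouse 2 it was 0.08, with an unadjusted p above 0.05. The r of Gabrb2 was 0.59 without mice 2 and 1. Both relations thus rest in part on the mouse with the fewest entries.

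**Figure D4:**
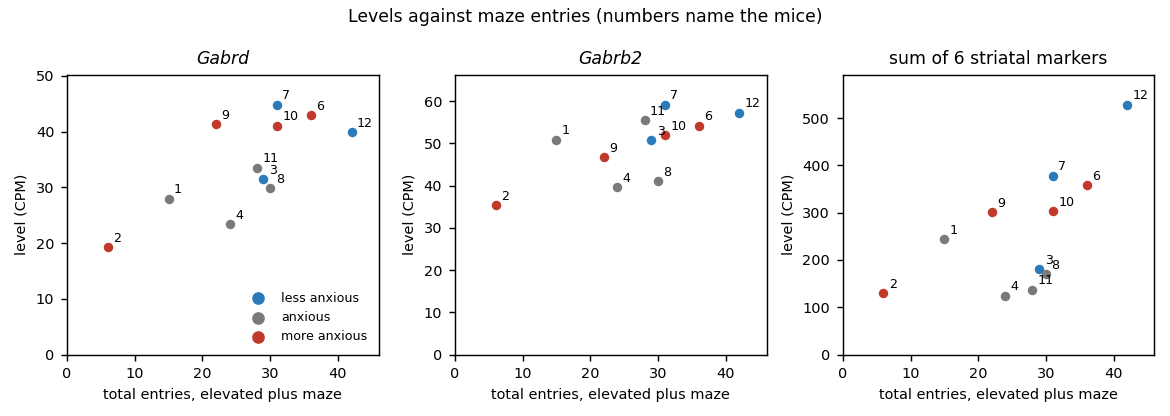
Level in CPM of Gabrd, of Gabrb2 and of the sum of 6 striatal markers against total entries in the EPM, 1 point per mouse with its number, colored by predicted anxiety state. Mouse 2, with 6 entries, has the lowest Gabrd and Gabrb2. The marker sum is highest in mice 12, 7 and 6, stands at 301 and 303 CPM in mice 9 and 10, and is lowest in mouse 4.

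None of the 6 striatal markers passed adjustment with EPM entries. All 6 had a positive slope, and Drd1, a dopamine receptor (0.36 per SD), and Ppp1r1b, which encodes DARPP-32 (0.51 per SD), had an unadjusted p under 0.05 in edgeR, where 50.3% of all genes had a positive slope and 6.97% such a p. All 4 astrocyte, all 4 oligodendrocyte, all 4 microglia and all 3 endothelial markers had a positive slope too. Other lists went the other way. A positive slope was found for 0 of 5 central amygdala, 1 of 4 basolateral amygdala, 1 of 5 interneuron and 1 of 4 glutamatergic markers. The striatal sum was 181, 379 and 529 CPM in less anxious mice 3, 7 and 12, 244, 124, 170.0 and 137 CPM in anxious mice 1, 4, 8 and 11, and 129, 358, 301 and 303 CPM in more anxious mice 2, 6, 9 and 10. The log2 sum had a Pearson r of 0.81 with Gabrd (rho 0.81, and 0.82 without mice 12 and 7), of 0.70 with Gabrb2 (rho 0.76, and 0.58 without them) and of -0.69 with Gabra2 (rho -0.62, and -0.80 without them) over the 11 mice. Of the same 112 relations, the interneuron markers gave -0.76 with Gabra4 (rho -0.77) and -0.72 with Gabrb2 (rho -0.74). The choroid plexus markers gave 0.67 with Gabrb2 (rho 0.83, and 0.48 without mice 7 and 12). Relations of like size in other lists included microglia with Gabra3 (0.75, rho 0.50) and hippocampus with Gabrb1 (0.64, rho 0.78). The lowest level of any of the 6 striatal markers in any mouse was 1.16 CPM. The part of striatal tissue in the slopes of Gabrd and Gabrb2 was not tested.

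Gabrb2 also had a positive slope with the LD distance in the light (0.14 ± 0.06, edgeR adjusted p = 0.848) and with EPM time on the open arms (0.13 ± 0.06, adjusted p = 0.839). Without mouse 2 these slopes were 0.08 and 0.075, both with an unadjusted p above 0.05. With mouse 5 added they were 0.053 and 0.084. The relation with open-arm time had an unadjusted p under 0.05 in 4 of the 11 fits that left out 1 mouse, and its permutation test gave p = 0.0792. The r with the LD distance was 0.62, and 0.39 without mice 6 and 2. Gabra4 had a slope of 0.08 ± 0.04 per SD of the 10 min box:zone ratio (edgeR adjusted p = 0.602), which was 0.04 without mouse 3, and its r of 0.68 came to 0.10 without mice 3 and 2. Gabrb1 was lower with a larger 3 min ratio (slope -0.12 ± 0.05, edgeR p = 0.0341), with r = -0.67 over 10 mice and -0.74 without mice 9 and 3, while without mouse 9 alone the slope was -0.07 (edgeR p = 0.218). None of these passed adjustment (lowest adjusted p = 0.601). Permutation tests carry no adjustment and were run for the members only, so their count has no share of all genes beside it. They gave p under 0.05 for 6 of the 49 relations. The lowest was 0.00744, for Gabrd with EPM entries. Gabra3 with the 10 min ratio was among them (permutation p = 0.0436, edgeR p = 0.0804).

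Levels of some members varied together over the mice. Of the 21 pairs, 4 had a Pearson r of log2 CPM over 0.6, and 8 were below 0. Gabrb2 and Gabrd gave 0.83 (rho 0.74), and 0.58% of the other genes with a mean of at least 1 CPM had as high an r with Gabrd. Without mice 2 and 4, the farthest from the median of Gabrb2, this r was 0.51. Gabra4 and Gabrb2 gave 0.76 (rho 0.61, and 0.85 without mice 2 and 3), which 1.73% of genes matched. Gabra3 and Gabra4 gave 0.67 (rho 0.55), which 2.33% of genes matched with Gabra3 and 4.18% with Gabra4. Gabra4 and Gabrd gave 0.63 (rho 0.49), which 6.07% of genes matched with Gabra4 and 5.48% with Gabrd. The lowest value was -0.51, for Gabra2 and Gabrd (rho -0.58). Alpha 4, beta and delta subunits are known to assemble in extrasynaptic receptors. The neighbours Gabra4 and Gabrb1, whose starts lie 387 bases apart, gave 0.00. The points share libraries, scaling and tissue composition, and no test was made of these values.

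**Figure D5:**
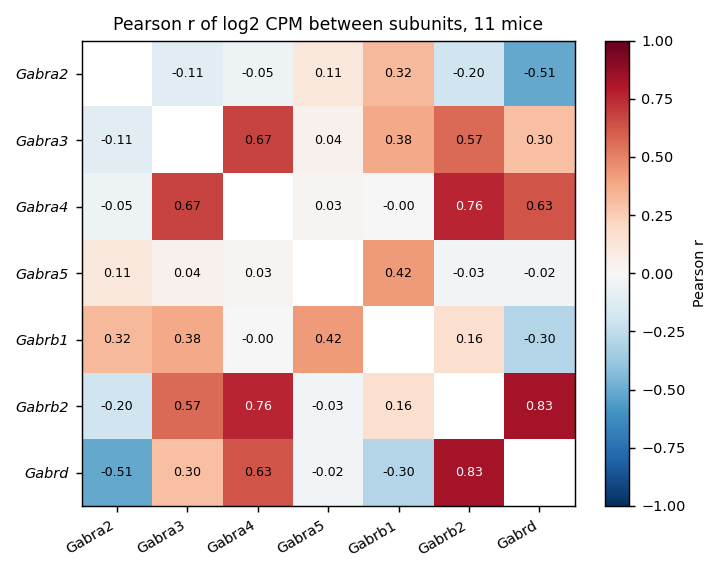
Pearson r of log2 CPM for each pair of subunit genes over 11 mice, from blue (negative) to red (positive). Gabra3, Gabra4, Gabrb2 and Gabrd have positive values with each other, the highest being 0.83 for Gabrb2 and Gabrd, and Gabra2 with Gabrd is the lowest at -0.51.

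Genes outside the family followed single members closely. Among 15884 genes, those most like Gabrd over the 11 mice were Drp2 (r = 0.96), Extl3 (0.95) and Map2k1 (0.94). For Gabrb2 they were Rnf4 (0.97), the kinase gene Camk4 (0.96) and the lincRNA Gm7292 (0.95), and for Gabra4 Crbn (0.96), Ccny (0.96) and Rprd1a (0.95). Gabrb1 was most like Grik2, a kainate receptor subunit (0.95), Fndc3a (0.93) and Xpr1 (0.93). Gabra2 followed Slc4a7 (0.97), Ccdc71l (0.92) and Heatr1 (0.91), Gabra5 followed Gtf3c5 (0.92), Gpr173 (0.92) and Rsl24d1 (0.90), and Gabra3 followed Ccdc47 (0.89), Emc7 (0.88) and Prickle2 (0.88). They are the highest of many values and were not tested.

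Of 9 other GABA-A subunit genes, 8 were tested and none had an unadjusted p under 0.05 over the 3 states, where 6.35% of all genes had one, and 1 had such a p between the end states, where 8.83% did. Gabrp did not reach the count minimum. Gabrg1, a gamma subunit found in parts of the amygdala, had 58.5 ± 16.2 CPM in less anxious, 48.1 ± 13.8 in anxious and 38.8 ± 3.59 CPM in more anxious mice (SD, n = 3, 4 and 4), a log2 difference of more minus less anxious of -0.46 ± 0.18 with an unadjusted p under 0.05 in edgeR (adjusted p over the states = 0.812). Gabrg3 had -0.34 ± 0.16, Gabrq, the theta subunit, -0.42 ± 0.33 and Gabre, the epsilon subunit, -0.24 ± 0.69. Gabra6, known from cerebellar granule cells, and Gabrr1, Gabrr2 and Gabrr3, the rho subunits of the retina, had means of 0.0357, 0.190, 0.438 and 0.0783 CPM.

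Of 25 genes of the inhibitory synapse and receptor trafficking, all tested, 1 had an unadjusted p under 0.05 over the states, where 6.35% of all genes had one. It was Insyn1, which encodes an inhibitory synaptic scaffold protein, at 115 ± 8.62, 131 ± 11.3 and 147 ± 8.13 CPM in less anxious, anxious and more anxious mice, a log2 difference of 0.33 ± 0.09 between the end states (edgeR p over the states = 0.0111, unadjusted). Of 10 genes of GABA synthesis, transport and chloride balance, 1 did so, Slc6a11, the GABA transporter GAT-3 of astrocytes, at -0.35 ± 0.12 (p over the states = 0.0404, edgeR, unadjusted). Of 8 neurosteroid and endozepine genes, 7 were tested and 1, Akr1c14, an enzyme that makes allopregnanolone, had such a p (0.0330, edgeR) with -0.74 ± 0.26 at a mean of 1.56 CPM. None of these passed adjustment, and 1 of 10 and 1 of 7 genes stand beside the same 6.35% of all genes. The median differences were -0.29, -0.04, -0.17 and 0.04 for the 8 other subunits and the synapse, transport and neurosteroid lists, beside 0.00 over all genes.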

How the data were processed

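Amygdala mRNA of 12 mice was sequenced as stranded libraries in a single run with 75-base single-end reads. The authors trimmed the reads where needed, quantified transcripts with Salmon and collapsed the estimates per gene by tximport. The deposited values are estimated counts (expected counts), not normalized and given as whole numbers, for 47729 genes. The mm10 build is named in the submitters' processing notes, and tool versions, annotation release and strand setting are not given in the sources used here. Names, exon lengths and coordinates came from GENCODE M21 (GRCm38), in which 47310 genes had an entry.

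CPM used TMM factors of 11 mice, and log2 CPM a prior count of 2. edgeR 4.0.16 (quasi-likelihood F-test, robust, R 4.3.3) was fitted to all genes with at least 10 reads in total. For the states, the PC1 score of variance-stabilized counts (DESeq2 1.42.0) was a covariate, since the study used its own PC1 as one, and for behavior a standardized measure was the only term. Benjamini-Hochberg adjusted p-values under 0.05 over all genes tested were called. DESeq2 was run as an alternative. With 1 library per mouse, p-values measure the spread between these mice. The precision of a value rests on counts of 859 or more per member and mouse.

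All members were named, with every other subunit gene tested except 3 whose values are not reported here, listed genes with an unadjusted p under 0.05 over the states, and the 3 genes most correlated with each member among those with a mean of at least 1 CPM. Slc1a3, Drd1, Ppp1r1b and Gabrp were named for their bearing on a result. The members and lists were chosen with earlier results of these data known. Alternatives changed, one at a time, the scaling, low-count filter, tool, dispersion option, covariate, coding of states, ranks of behavior, gene length, permutation, and which mice entered (mouse 5 added or each mouse dropped). The procedure was tested on simulated data. Python 3.11.15, numpy 2.4.6, pandas 2.3.3, scipy 1.17.1 and matplotlib 3.10.9 were used.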

Additional observations from a re-analysis of the deposited data

Results flagged for a closer look

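In 14 groups of 4 mice (7 members in the anxious and the more anxious state), 1 value lay far from the other mice of its group. Gabrd stood at 19.3 CPM in more anxious mouse 2, and its gap to the next mouse was 0.920 of the range of the group. Chance flags about 5% of such groups. The same mouse made 6 EPM entries, the fewest of the 11, had a striatal marker sum of 129 CPM and had the lowest Gabra3, Gabra4 and Gabrb2.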

How the results depend on the processing

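No member was called over the states, between the end states or with a behavior measure under any alternative run, each mouse left out included, apart from permutation tests, which carry no adjustment. The members with an unadjusted p under 0.05 between the end states, 1 as reported, were 0 with DESeq2 size factors, a mean of at least 1 CPM, no robust option, no covariate, DESeq2 or exact permutation, and 0 to 1 with a mouse left out. Over the states they were 0 as reported, 1 with the group order as a number and 0 to 2 with a mouse left out. The 6 relations with behavior at that level were 3 with mouse 5 included and 1 to 7 with a mouse left out, the lowest without mouse 2. The difference of Gabra2 ranged from -0.082 to 0.075 with a mouse left out and turned to 0.01, 0.03, 0.03 and 0.075 without mouse 1, 6, 7 or 9, and that of Gabrd, from -0.23 to 0.10, turned to 0.10 and 0.03 without mouse 2 or 7. With the longest protein-coding transcript, 3 of 7 members kept their rank by level. Genes called in all over the states, 2 as reported, were 9 without a count filter, 0 with a mean of at least 1 CPM, 1 without the robust option, 0 without the covariate, 22 with the group order as a number, 192 with DESeq2 and 0 to 4 with a mouse left out. Between the end states, 12 as reported, they were 25, 2, 2 and 3 under the same settings in turn, 304 with DESeq2 and 0 to 24 with a mouse left out. Of the 113 listed genes and markers, 0 as reported, DESeq2 called 5 over the states (Slc1a3, Cck, Kcnj13, Prl and Gh), an alternative added after seeing the data. Over all 26963 genes tested it called 192. The causes were not tested. No paired analysis was possible because the states share no mouse number.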

Other observations

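Mouse 5, which the labels place in no state, had 160.4 CPM of Gabra2, 247 of Gabra3, 115 of Gabra4, 66.3 of Gabra5, 171 of Gabrb1, 66.3 of Gabrb2 and 38.4 CPM of Gabrd, scaled together with the other 11 mice. Its Gabra3, Gabra4 and Gabrb2 lay above the highest of the 11 mice (241, 111 and 59.3 CPM), and the other 4 members lay within their range.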
